A study of Mus musculus with 3 samples.

Results

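The Mas-related G protein-coupled receptors described here are Mrgprd, Mrgpra3, Mrgprb4, Mrgprb5, Mrgprx1 and Mrgpre, 6 of the 31053 genes in the count matrices and 6 of the 21 genes in them that belong to the family when Mas1 is counted. They were taken by gene symbol, and the choice of these 6 was made with earlier results of these data known. Their levels were read in sensory neurons of the mouse dorsal root ganglion (DRG) with the other cell classes of the ganglion beside them. Every cell came from a 13-week-old male C57BL/6J mouse, and each of the 3 single-cell libraries pooled the L3 and L4 DRGs of both sides from 2 mice, 8 ganglia in all. The naive library was from untreated mice, and the other libraries were from mice taken 7 or 14 days after spared nerve injury (SNI) in both hindlegs. With 1 library for each condition the mice cannot be told apart, no difference between conditions has a replicate check, and no test is given. The intervals below are exact 95% intervals that cover counting error only. Both injury libraries were compared with the same naive library.

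Mas-related receptors are expressed mainly by small unmyelinated sensory neurons, where they respond to small molecules and peptides and serve itch, pain and touch. Mrgprd is the receptor for β-alanine and marks the non-peptidergic nociceptors whose endings reach the epidermis. Mrgpra3 is the chloroquine receptor of itch neurons, and Mrgprx1, which the literature also calls MrgprC11, responds to the BAM peptide. Mrgprb4 marks fibres that respond to stroking of hairy skin, Mrgprb5 is a closely related receptor, and Mrgpre is an orphan receptor.

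All 6 receptor genes lie on chromosome 7 of mouse build mm10. Mrgpra3 (ENSMUSG00000078698, chr7:47588950-47601372), Mrgprx1 (ENSMUSG00000070552, chr7:48020971-48027597), Mrgprb5 (ENSMUSG00000070551, chr7:48167983-48169019) and Mrgprb4 (ENSMUSG00000070550, chr7:48198070-48199288) stand in 1 cluster on the minus strand. Mrgpre (ENSMUSG00000048965, chr7:143778363-143784500, minus strand) and Mrgprd (ENSMUSG00000051207, chr7:145314835-145324086, plus strand) lie far from that cluster. Mrgprb4 and Mrgprb5 each have 1 exon, their annotated spans are 29050 bases apart, and their upstream sequences were the most alike among the 5 receptors with an entry in the RefSeq promoter table (build GRCm38.p6), in which Mrgpra3 was not found. Over the 250 bases before the RefSeq start, 82.6% of aligned positions were identical between Mrgprb4 and Mrgprb5, against 48.2% to 52.5% for the other pairs. Stretches of these sequences that lie upstream of the annotated transcripts are shown because Mrgprb5 was counted in 17 neurons and its neighbour Mrgprb4 in 1, as described further down. Capitals mark bases that differ between the 2 sequences or have no partner in their alignment, and 114 of 143 aligned positions (79.7%) were identical. The Mrgprb4 stretch is 140 bases at chr7:48199289-48199428, the Mrgprb5 stretch is 138 bases at chr7:48169096-48169233, and both are written 5′ to 3′ on the minus strand. The Mrgprb4 stretch ends at the annotated start, and 76 bases that are not shown lie between the Mrgprb5 stretch and its annotated start.
Mrgprb4: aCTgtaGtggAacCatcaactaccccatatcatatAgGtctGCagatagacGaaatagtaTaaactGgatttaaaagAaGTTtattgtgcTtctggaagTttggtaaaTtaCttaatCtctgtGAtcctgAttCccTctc
Mrgprb5: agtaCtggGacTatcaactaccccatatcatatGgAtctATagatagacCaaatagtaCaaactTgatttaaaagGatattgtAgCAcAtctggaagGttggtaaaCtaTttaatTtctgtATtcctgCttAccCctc
The 250 bases before Mrgprd are shown because Mrgprd is the receptor on which most of the results turn. They lie at chr7:145314585-145314834 on the plus strand.
Mrgprd: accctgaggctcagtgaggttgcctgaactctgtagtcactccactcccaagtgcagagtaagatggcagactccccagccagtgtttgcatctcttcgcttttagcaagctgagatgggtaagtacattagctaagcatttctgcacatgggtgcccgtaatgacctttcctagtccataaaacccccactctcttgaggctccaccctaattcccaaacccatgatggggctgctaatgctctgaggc
Runx1 is a transcription factor of non-peptidergic neurons, and the words TGTGGT and TGCGGT, which do not overlap each other, were searched on both strands as its core motif. None of the 5 upstream sequences of 250 bases held either word, while 18.6% of the 32851 upstream sequences in the table did. That says only that these letters are not in these windows.

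A barcode counted as a cell when it had 500 or more detected genes and no more than 20% of its UMIs (unique molecular identifiers, each standing for 1 captured transcript) in mitochondrial genes. That left 3152, 2682 and 3828 cells of 3748, 3281 and 4908 barcodes in the naive, day 7 and day 14 libraries, whose total UMIs ranged from 22343246 to 36550911. Neurons were gated by at least 6 of 12 neuronal markers together holding at least 0.5% of a cell's UMIs, which gave 128, 206 and 146 neurons (480 of 9662 cells). Each marker was part of the gate, so these shares are a description of the gated cells and no check of them, and in the day 7 library they ran from 42.2% (Isl1) and 52.9% (Scn9a) to 100% (Stmn2). The day 7 library stood apart, because its neurons had a median of 2320 UMIs against 63909 in the naive and 79214.5 in the day 14 library, and only 52 of its 206 neurons held 20000 UMIs or more, against 96 and 110. Glial RNA was present in the gated neurons, with the summed satellite glia markers at 481 to 773 CPM (UMIs of the gene per 1000000 UMIs of all genes) against 11627 to 13755 CPM in satellite glia themselves. In what follows, levels are CPM of summed UMIs, and neurons with 20000 UMIs or more are called deep. Of 11937 barcodes, 9 sequences occurred in more than 1 library, and 1 of those belonged to a gated neuron.

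Mrgprd carried most of the receptor signal, and it was close to an on-off gene among deep neurons. In total 1562, 1235 and 1384 Mrgprd UMIs were counted in the neurons of the naive, day 7 and day 14 libraries. The level was 183.6 CPM (174.6 to 193.0) in naive neurons, 187.3 CPM (177.0 to 198.0) at day 7 and 109.1 CPM (103.5 to 115.0) at day 14. The day 7 and naive intervals overlapped, and the day 14 interval lay below both. The log2 ratio over naive was 0.03 (-0.08 to 0.14) at day 7 and -0.75 (-0.86 to -0.65) at day 14. A UMI of Mrgprd was found in 34.4% of naive neurons (26.2% to 43.3%), 27.7% of day 7 neurons (21.7% to 34.3%) and 19.9% of day 14 neurons (13.7% to 27.3%). Since depth differed, each neuron was also thinned to 20000 UMIs, which leaves out 32, 154 and 36 shallower neurons, and the shares were then 36.0%, 29.0% and 19.4%. Of endothelial cells, mural cells, macrophages, lymphocytes and neutrophils, which should lack the receptor, 0 of 508, 2 of 559 and 7 of 807 held a Mrgprd UMI.

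Among the deep neurons, 59 naive, 36 day 7 and 86 day 14 neurons held no Mrgprd UMI, while 32, 15 and 19 held 10 or more. Few lay between, with 1 to 4 UMIs in 5, 1 and 3 neurons and with 5 to 9 UMIs in 0, 0 and 2. The neurons with 10 or more UMIs were 33.3% of deep neurons in the naive library (24.0% to 43.7%), 28.8% at day 7 (17.1% to 43.1%) and 17.3% at day 14 (10.7% to 25.7%). The share was lowest at day 14, as the level was, and the naive and day 14 intervals overlapped over a narrow range. Within neurons that held at least 5 Mrgprd UMIs, a limit chosen after the data were seen, the level was 409 CPM (389 to 430) in 35 naive neurons, 460 CPM (434 to 487) in 17 day 7 neurons and 403 CPM (382 to 425) in 21 day 14 neurons. The day 14 and naive intervals overlapped here. Mrgprd itself chose these neurons, so a neuron whose Mrgprd had fallen below the limit would no longer be among them, and these levels are a description. These neurons held 98.8%, 95.3% and 99.3% of all Mrgprd UMIs in neurons of their library. A lower share of Mrgprd neurons and a different recovery of that type from the tissue cannot be told apart in 1 library a condition.

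**Figure D1:**
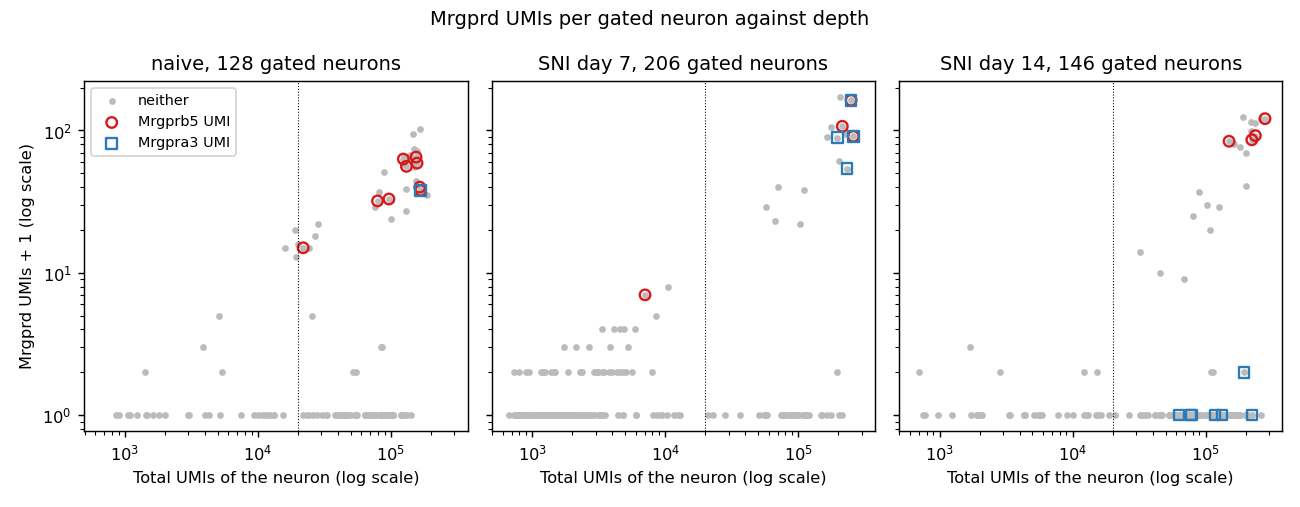
Each point is 1 gated neuron, with its total UMIs on a log x axis and its Mrgprd UMIs plus 1 on a log y axis, in 1 panel for each library. The dotted line stands at 20000 UMIs, circles mark neurons with a Mrgprb5 UMI and squares those with a Mrgpra3 UMI. To the right of the line 32, 15 and 19 neurons hold 10 or more Mrgprd UMIs and few lie between these and the neurons at 0, while most day 7 neurons lie to the left of the line.

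Below 20000 UMIs the levels differed more, on few UMIs. Mrgprd was found in 7 of 32 such neurons in the naive library (243 CPM), in 41 of 154 at day 7 (172 CPM) and in 5 of 36 at day 14 (26.2 CPM). The naive level came from 53 UMIs (182 to 318 CPM), most of them in 3 neurons with 12, 14 and 19, and the day 14 level from 6 UMIs. In deep neurons alone the log2 ratios over naive were 0.05 (-0.06 to 0.16) and -0.72 (-0.82 to -0.61), close to those over all neurons.

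Mrgprb5, the receptor closely related to Mrgprb4, was sparse, and every neuron that held it also held Mrgprd. It had 10 UMIs in 9 naive neurons, 4 UMIs in 4 day 7 neurons and 4 UMIs in 4 day 14 neurons. That is 1.18 CPM (0.564 to 2.16), 0.606 CPM (0.165 to 1.55) and 0.315 CPM (0.0859 to 0.808), and the 3 intervals overlapped. The log2 ratio over naive was -0.95 (-3.08 to 0.84) at day 7 and -1.90 (-4.02 to -0.10) at day 14. Of the 17 neurons, 16 held a single UMI. All 17 held Mrgprd, with 6 to 162 UMIs and a median of 62, against 27.1% of all gated neurons. Among deep neurons of the 3 libraries, Mrgprb5 was found in 16 of 66 with 10 or more Mrgprd UMIs (24.2%, 14.5% to 36.4%) and in 0 of 181 without Mrgprd, which allows up to 2.02% of neurons with a UMI at their depth and sets no limit on neurons that express the gene. Thinned to 20000 UMIs, the first share was 4.42%. The separation was present in each library, with 9 of 32 against 0 of 59 neurons in the naive, 3 of 15 against 0 of 36 in the day 7 and 4 of 19 against 0 of 86 in the day 14 library. No UMI of Mrgprb5 was found in 9182 other cells, against 35 of these cells with a Mrgprd UMI.

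Mrgprb4 gave 4 UMIs, all in 1 day 14 neuron with 222718 UMIs and no Mrgprd. None was counted in the 128 naive neurons, which allows up to 0.353 CPM, or in the 206 day 7 neurons, which allows up to 0.455 CPM. The day 14 level was 0.315 CPM (0.0859 to 0.808), so no difference was detectable at this depth. None was found in other cells. The 2 receptors whose upstream sequences are shown above shared no neuron here, where 1 neuron held Mrgprb4.

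Mrgpra3, the chloroquine receptor, was found in 12 neurons, each with at least 63333 UMIs. It had 3 UMIs in 1 naive neuron, 30 UMIs in 4 day 7 neurons and 34 UMIs in 7 day 14 neurons. The levels were 0.353 CPM (0.0727 to 1.03), 4.55 CPM (3.07 to 6.49) and 2.68 CPM (1.86 to 3.75), with the naive interval below both others. The log2 ratio over naive was 3.69 (2.00 to 6.05) at day 7 and 2.93 (1.26 to 5.27) at day 14. A single neuron carried 26 of the 30 day 7 UMIs and a single neuron 26 of the 34 day 14 UMIs, so these ratios describe very few cells. A naive barcode that passed the neuron gate and failed the cell filter held 8 more UMIs, and without that filter the log2 ratios were 1.82 (0.78 to 2.97) and 1.07 (0.05 to 2.19). The day 7 neuron with 26 UMIs also held 162 Mrgprd UMIs. It was not among the 2 gated neurons marked as doublets by Scrublet. Neurons with a UMI of Mrgpra3 were 0.781% of naive neurons (0.0198% to 4.28%), 1.94% at day 7 (0.532% to 4.90%) and 4.79% at day 14 (1.95% to 9.63%), which overlap. Thinned to 20000 UMIs the shares were 0.330%, 2.39% and 2.21%.

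What Mrgpra3 neurons held beside it rests on 4 neurons at day 7 and 7 at day 14, most with 1 or 2 Mrgpra3 UMIs. It establishes no difference between the injury libraries. All 4 Mrgpra3 neurons of day 7 and the naive one were Mrgprd neurons, with 53 to 162 and 37 Mrgprd UMIs. At day 14 none of 19 deep neurons with 10 or more Mrgprd UMIs held Mrgpra3, against 6 of 86 without Mrgprd, and the seventh held 1 Mrgprd UMI. Of those 6 neurons, 5 held 1 or 2 Mrgpra3 UMIs beside 7 to 42 UMIs of Sst and 28 to 59 of Nppb, the peptides of another group of itch neurons, and 2 to 11 of the histamine receptor gene Hrh1. The other was the neuron with 26 Mrgpra3 UMIs, which also held the 4 Mrgprb4 UMIs, 3 of Mrgprx1, 6 of the injury gene Atf3 and 2 of Sprr1a. Atf3 was in the 5 neurons with Sst and Nppb too, with 2 or 3 UMIs each, and Sprr1a was not. Their depths were 63333 to 133056 UMIs, against 222718 in the other neuron. A UMI of Atf3 or Sprr1a was held by 66 of the 110 deep day 14 neurons. The presence of Atf3 therefore does not set these neurons apart. All 12 Mrgpra3 neurons, each of them deep, also held Mrgpra2b. It was found in 33 of 96, 20 of 52 and 41 of 110 deep neurons of the naive, day 7 and day 14 libraries. Outside neurons, Mrgpra3 had 0 UMIs in 3024 naive cells and 2 UMIs in 1 of 2476 day 7 cells. In the day 14 library it had 10 UMIs in 10 of 3682 cells. Over the 3 libraries this was 12 UMIs in 11 of 9182 cells. Of these UMIs 9 were in myelinating Schwann cells, which were 4457 of those cells. The level there, 0.522 CPM (0.239 to 0.992), overlapped that in satellite glia, 0.198 CPM (0.0240 to 0.716).

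Mrgprx1, the BAM peptide receptor, had 4 UMIs in 3 naive neurons, 1 UMI in 1 day 7 neuron and 6 UMIs in 3 day 14 neurons. The levels were 0.470 CPM (0.128 to 1.20), 0.152 CPM (0.00384 to 0.845) and 0.473 CPM (0.174 to 1.03), and the intervals overlapped. The log2 ratios were -1.63 (-7.25 to 1.70) at day 7 and 0.01 (-2.07 to 2.28) at day 14. Of the 7 neurons, 3 held Mrgprd (2, 29 and 120 UMIs), and 1 day 14 neuron without Mrgprd held Mrgpra3, Mrgprb4 and Mrgprx1 together. No other cell held Mrgprx1.

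Mrgpre, the orphan receptor, was spread over neurons with and without Mrgprd and differed little in level between the libraries. It had 212, 167 and 340 UMIs in naive, day 7 and day 14 neurons, which is 24.9, 25.3 and 26.8 CPM. The log2 ratio over naive was 0.02 (-0.28 to 0.32) at day 7 and 0.11 (-0.15 to 0.36) at day 14, and both intervals include 0. A UMI was found in 62.5%, 26.7% and 65.8% of all gated neurons, but in 37.9%, 36.9% and 39.0% once each neuron was thinned to 20000 UMIs, so the lower day 7 share went with depth. Of 231 Mrgpre neurons 69 (29.9%) held Mrgprd, near the 27.1% of all gated neurons. In deep neurons the level was 23.2 CPM (20.3 to 26.5) with 10 or more Mrgprd UMIs and 28.0 CPM (25.5 to 30.7) without Mrgprd, with a UMI in 58 of 66 and 146 of 181 neurons. A small gene, Gm22064, overlaps Mrgpre on the other strand, and its reads were assigned by the authors' counting.

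**Figure D2:**
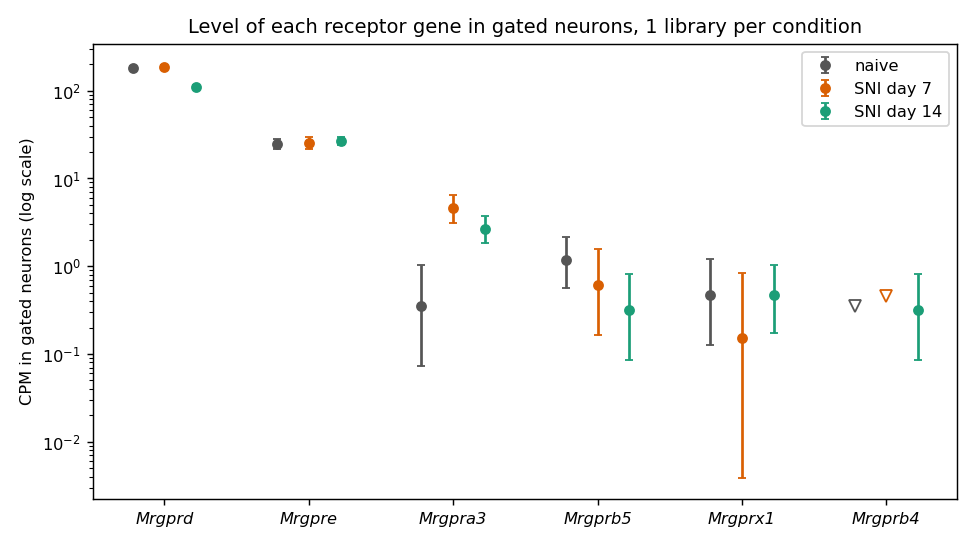
The level of each receptor in gated neurons is plotted as CPM on a log axis for the naive, day 7 and day 14 libraries, with exact 95% intervals that cover counting error only, and an open triangle marks the limit of 3 counts where none was seen. The Mrgprd level is lower at day 14 (109.1 CPM) than in the naive library (183.6 CPM), Mrgpre stays between 24.9 and 26.8 CPM, and the other 4 receptors rest on few UMIs.

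A 2-fold change was then set against all genes. Of 10706 genes with at least 5 CPM in the naive or day 7 neurons, 2.4% were at least 2-fold higher at day 7 and 0.766% at least 2-fold lower, on ratios of CPM plus 1. Of 10745 at day 14, 3.18% were higher and 0.707% lower. Only Mrgprd and Mrgpre of the 6 receptors reached 5 CPM, and 0 of these 2 passed 2-fold on either day. The other 4, Mrgpra3 included, were below 5 CPM in both libraries of each comparison and were not counted.

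The 15 other genes of the family added 5 with a UMI in a gated neuron, and 9 of the 15 had no UMI in any cell kept. Mrgpra2b was the most widespread of these, with 452 UMIs in 105 neurons at 14.7, 21.4 and 14.7 CPM in the naive, day 7 and day 14 libraries. Mrgpra2a had 130 UMIs in 66 neurons, at 3.88, 8.34 and 3.31 CPM. Their transcripts are near-copies, since 73.0% of 60-base words in the last 500 bases of Mrgpra2a occur elsewhere in the family (72.9% for Mrgpra2b), so reads of this pair are uncertain. The corresponding share was 0% for Mrgprd, Mrgprb4, Mrgprb5, Mrgprx1 and Mrgpre and 0.454% for Mrgpra3.

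Both near-copies went with Mrgprd. Among deep neurons of the 3 libraries, Mrgpra2b was at 34.1 CPM (30.5 to 38.0) with 10 or more Mrgprd UMIs, in 55 of 66 neurons, and at 5.75 CPM (4.65 to 7.04) without Mrgprd, in 34 of 181. Mrgpra2a was at 11.0 CPM (8.98 to 13.3) in 47 of 66 and at 1.29 CPM (0.796 to 1.96) in 15 of 181. Thinned to 20000 UMIs, the shares were 41.0% against 7.98% for Mrgpra2b and 17.8% against 2.09% for Mrgpra2a. Mrgpra1, another receptor of the same cluster, was found in 6 of 66 and 1 of 181, for which no thinned share is given. Neurons with at least 5 Mrgprd UMIs had median depths of 129105, 176318 and 181995 UMIs in the naive, day 7 and day 14 libraries. All deep neurons had medians of 84726, 100631 and 103619 UMIs, so unthinned shares favour the Mrgprd neurons. Within Mrgprd neurons of the day 7 library, Mrgpra2a was at 16.9 CPM against 7.80 CPM in the naive library, a log2 ratio of 1.12 (0.40 to 1.85). At day 14 it was at 10.0 CPM, with a log2 ratio of 0.36 (-0.41 to 1.13) that includes 0. A single day 7 neuron, with 53 Mrgprd UMIs, held 10 UMIs of Mrgpra2a. Over all gated neurons the day 7 log2 ratio was 1.10 (0.46 to 1.77) for Mrgpra2a and 0.54 (0.18 to 0.90) for Mrgpra2b. Since reads of the pair are uncertain, the larger ratio cannot be assigned to 1 copy. Outside neurons Mrgpra2b was found in neutrophils, at 183, 147 and 192 CPM in 5 of 16, 6 of 16 and 7 of 27 cells.

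**Figure D3:**
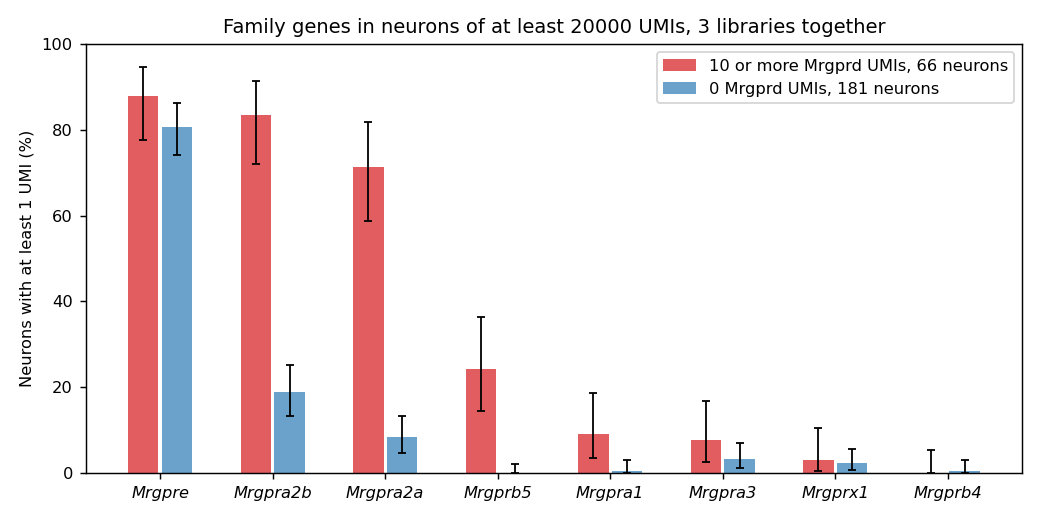
Bars give the percent of deep neurons with at least 1 UMI of each family gene over the 3 libraries, in red for the 66 with 10 or more Mrgprd UMIs and in blue for the 181 with none, with exact 95% intervals that cover counting error only. The shares are not thinned to equal depth, and the Mrgprd neurons were the deeper group. Mrgpra2b (55 and 34 neurons), Mrgpra2a (47 and 15) and Mrgprb5 (16 and 0) have the higher bar in the Mrgprd neurons without overlap of the intervals, while the Mrgpre bars (58 and 146 neurons) overlap.

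Outside neurons the receptors differed in how much of their level remained, with the caveat that free RNA gives UMIs to cells that do not express a gene. Mrgprd was at 0.809 CPM (0.570 to 1.12) over the 9182 other cells, 0.538% of its level in neurons, and at 0.628, 0.899 and 0.866 CPM in the naive, day 7 and day 14 libraries. Ordered by level it was at 1.89 CPM in mural cells, 1.57 in fibroblasts, 1.49 in non-myelinating Schwann cells, 0.799 in endothelial cells, 0.793 in satellite glia and 0.638 in myelinating Schwann cells, neighbours whose intervals all overlap. It was found in 0 of 555 macrophages, which allows up to 1.23 CPM. Mrgpre differed, at 9.59 CPM (7.32 to 12.3) in endothelial cells, 8.42 CPM (7.10 to 9.90) in myelinating Schwann cells and 5.35 CPM (4.02 to 6.98) in satellite glia, which is 37.1%, 32.5% and 20.7% of its level in neurons. Lower levels followed in non-myelinating Schwann cells (3.73 CPM), fibroblasts (2.36 CPM), mural cells (0.631 CPM) and macrophages (0.410 CPM). The endothelial and myelinating Schwann intervals overlapped, the endothelial and satellite intervals did not, nor did those of endothelial cells and macrophages (upper bound 2.29 CPM). Mrgpra3 was at 0.262 CPM (0.136 to 0.458) over all other cells, 10.9% of its level in neurons (5.36% to 20.3%). That rested on 12 UMIs, 10 of them in the day 14 library. Mrgprb4, Mrgprb5 and Mrgprx1 had no UMI in other cells, which allows up to 0.0656 CPM each.

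**Figure D4:**
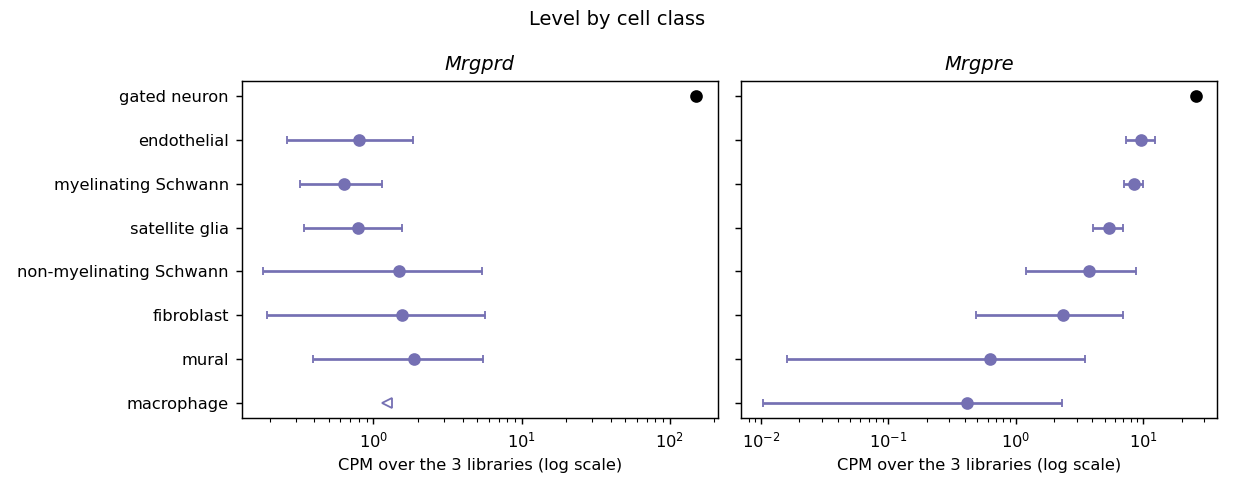
Levels of Mrgprd (left) and Mrgpre (right) in gated neurons and in 7 other cell classes are plotted as CPM on a log x axis over the 3 libraries together, with exact 95% intervals for the other classes and an open triangle at the limit of 3 counts where no UMI was seen. Mrgprd is at 150.5 CPM in neurons and at most 1.89 CPM in the other classes, while Mrgpre reaches 9.59 CPM in endothelial cells against 25.9 CPM in neurons.

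Mrgprf, a family member of muscle and connective tissue, showed the opposite order. It had 9 UMIs in neurons and 293 in other cells, at 52.6, 45.5 and 52.6 CPM in mural cells and 54.5, 75.0 and 52.5 CPM in non-myelinating Schwann cells of the 3 libraries. Mas1, the angiotensin-(1-7) receptor after which the family is named, had 4 UMIs in neurons and 15 elsewhere, and it was at 7.52, 10.4 and 5.69 CPM in mural cells.

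The genes whose pattern was most like each receptor were taken by the mean of the within-library Pearson correlations over gated neurons, among 13050 genes. Neurons of 1 library share that library and differ in depth, so these are descriptions. For Mrgprd they were Ly86 (mean r of 0.70, with 0.88, 0.55 and 0.67 in the naive, day 7 and day 14 libraries), Prkcq (0.68), Cd55 (0.67), Ctxn3 (0.67) and Gm765 (0.64), over 480 neurons. For Mrgpre the highest values were 0.28 to 0.32, led by Zbtb11. For Mrgprb5 the highest mean was 0.37 (AL591952.3), which came from the day 7 library, with 0.05, 0.95 and 0.10 in the naive, day 7 and day 14 libraries, where 9, 4 and 4 neurons held Mrgprb5. For Mrgpra3, over the 2 injury libraries with 4 and 7 such neurons, it was 0.44 for Gm45052 (0.46 and 0.42) and for Gpr179 (0.21 and 0.67). Mrgprb4 and Mrgprx1 were in fewer than 10 neurons and were not compared.

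Deep neurons that were rich in Mrgprd were also compared, gene by gene, with deep neurons that held none, a split chosen after the data were seen and made with Mrgprd itself. A neuron that had lost Mrgprd after injury would therefore count among those without it. Over the 3 libraries 3.66% of 10924 genes were at least 2-fold higher in the 66 Mrgprd neurons and 16.1% at least 2-fold lower than in the 181 others. Of the list of non-peptidergic neuron genes, 11 of 13 tested were higher and 0 lower (median log2 ratio 2.08 against -0.24 for all genes). Agtr1a, the angiotensin receptor, was at 45.9 against 0.673 CPM, and Prkcq, a protein kinase C, at 247 against 4.10 CPM. Lpar3, a lysophosphatidic acid receptor, was at 292 against 5.57 CPM, and Cd55, a complement regulator, at 1153 against 81.0 CPM. These are genes known from Mrgprd neurons, and they follow the receptor in all 3 libraries, with 10, 11 and 12 of 13 higher, where 4.03%, 4.58% and 4.33% of all genes were higher and 15.8%, 18.3% and 16.4% lower.

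Of the genes of the signalling path below the receptor, 5 of 20 were higher and 6 lower (median -0.26), so the list did not move one way. Among the higher ones were the G protein subunits Gnaq (1836 against 627 CPM) and Gna14 (274 against 69.5 CPM), the phospholipase Plcb3 (213 against 69.4 CPM) and Prkca (1083 against 218 CPM). Of the itch genes 2 of 13 were higher, the channel Trpa1 (127 against 36.8 CPM) and the prostaglandin D2 receptor Ptgdr (125 against 20.2 CPM), and 10 were lower (median -2.71). The lower ones included the peptides Nppb (0.418 against 89.2 CPM) and Sst (0.209 against 29.9 CPM), the cytokine receptor Il31ra (0.941 against 74.0 CPM) and the heat channel Trpv1, which was 28.8-fold lower in Mrgprd neurons than the 259 CPM of the others. Of the peptidergic list 1 of 7 was higher and 6 lower (median -2.70), of the large neuron list 0 higher and 4 lower of 7 (median -1.09), and of the list for C-low threshold mechanoreceptors 0 higher and 5 lower of 6 (median -4.42).

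The same split was read for genes that sensory neurons turn on after axon injury. Over the 3 libraries 0 of 7 tested genes of the injury list were higher and 7 lower in the Mrgprd neurons (median -5.26). Sprr1a, a growth-associated gene, was at 0, 2.36 and 1.21 CPM in Mrgprd neurons of the naive, day 7 and day 14 libraries, and at 14.3, 980 and 383 CPM in neurons without Mrgprd. Atf3, the injury transcription factor, was at 1.61, 2.36 and 2.42 CPM against 22.7, 241 and 152 CPM, and the neuropeptide gene Gal at 0.538, 1.57 and 1.82 CPM against 74.5, 917 and 312 CPM. Both were low in Mrgprd neurons of each library and higher after injury in the others. Gap43, a growth cone protein, was at 47.9, 46.0 and 44.9 CPM in Mrgprd neurons, with log2 ratios over naive of -0.06 (-0.41 to 0.29) and -0.09 (-0.42 to 0.23), and at 456, 1496 and 1634 CPM in the others, with ratios of 1.72 and 1.84. Sox11 was at 94.9, 101 and 78.8 CPM against 116, 648 and 477 CPM.

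Within Mrgprd neurons the injury list had 2 genes that could be tested, and 0 passed 2-fold on either day, where 1.16% of 9695 genes were higher and 0.805% lower at day 7 and 1.1% of 9717 higher and 0.607% lower at day 14. Within deep neurons without Mrgprd, 6 of 7 were at least 2-fold higher on both days, where 3.08% of 10964 genes were higher and 2.01% lower at day 7 and 3.24% of 10993 higher and 2.1% lower at day 14. Mrgprd itself, which chose the neurons, was at 403, 458 and 412 CPM in these 32, 15 and 19 neurons, with log2 ratios of 0.18 (0.07 to 0.29) and 0.03 (-0.08 to 0.14). The non-peptidergic list had 0 of 13 genes past 2-fold in them on either day (medians -0.09 and 0.09, against 0.00 and 0.06 for all genes). Of the other lists, 2 of 7 itch genes were at least 2-fold higher at day 7 and 1 of 7 at day 14, and 1 of 4 peptidergic and 1 of 5 large neuron genes were higher at day 14. Among these, the oncostatin M receptor gene Osmr was more than 2-fold higher on both days, at 7.80, 25.2 and 32.7 CPM. Trpv1 passed at day 7 (4.84 to 16.9 CPM), and Spp1 passed at day 14 (1.08 to 5.76 CPM). Naive levels of both were below the minimum of 5 CPM, and both were named after their values were seen. Whether a few of the 32, 15 and 19 neurons, or glial RNA, carry these differences was not tested.

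**Figure D5:**
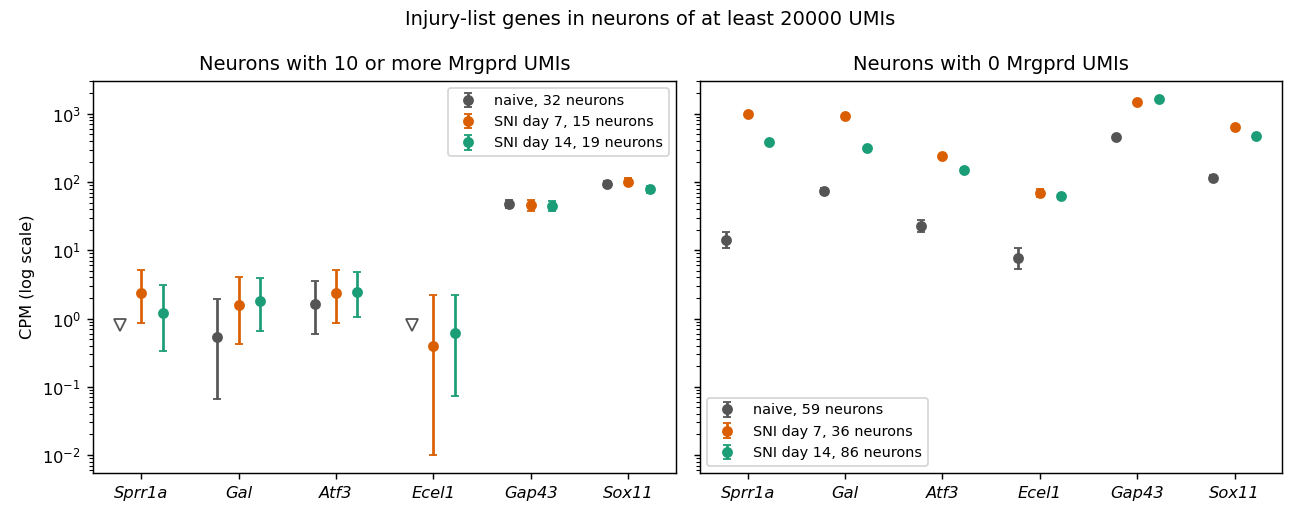
Levels of 6 injury genes, Sprr1a, Gal, Atf3, Ecel1, Gap43 and Sox11, are plotted as CPM on a log axis for the 3 libraries, separately for deep neurons with 10 or more Mrgprd UMIs (32, 15 and 19 neurons) and with none (59, 36 and 86), with exact 95% intervals and open triangles at the limit of 3 counts. In neurons without Mrgprd, Sprr1a goes from 14.3 to 980 and 383 CPM, and in Mrgprd neurons it is at or below 2.36 CPM.

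The shallow neurons of day 7 were split by any Mrgprd UMI against none, where the deep split used 10 or more against none. The size of the separation can therefore not be compared between deep and shallow neurons. Of the 154 day 7 neurons with under 20000 UMIs, the 41 with a Mrgprd UMI had a median of 3110 UMIs, and Sprr1a was found in 27 of them at 315 CPM (230 to 422). The 113 without one had a median of 1537 UMIs, and Sprr1a was at 1317 CPM (1183 to 1463). At that depth a neuron that expresses Mrgprd can lack a UMI of it, so these 113 are not known to be without Mrgprd. The levels of Gal were 203 against 457 CPM, of Atf3 56.0 against 219 CPM and of Gap43 455 against 1336 CPM. These genes were lower beside a Mrgprd UMI here too, yet Sprr1a and Gal stood far above their levels of 2.36 and 1.57 CPM in deep Mrgprd neurons of the same library. Those deep neurons were chosen by a higher Mrgprd limit, and why the levels differ was not tested. The shallow neurons with a Mrgprd UMI held Cd55 at 1289 against 453 CPM, Lpar3 at 406 against 151 CPM and Prkcq at 301 against 75.5 CPM, so the non-peptidergic genes followed Mrgprd in them as well. Other cells of the library had Sprr1a at 6.74 CPM, in 2.71% of cells. Scrublet marked 1 of the 206 gated day 7 neurons as a doublet, and no other check of whether each barcode holds 1 cell was made.

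Split the other way, by a UMI of Atf3 or Sprr1a, Mrgprd was found in 6 of 26 deep naive neurons with such a UMI and 31 of 70 without, in 8 of 35 and 8 of 17 at day 7, and in 9 of 66 and 15 of 44 at day 14. In the shallow day 7 neurons it was in 28 of 111 with and 13 of 43 without. A single UMI was enough for this split, so it does not set injured neurons apart. Deep neurons with such a UMI also had a higher median depth, 110911 against 70690 UMIs at day 7 and 108194 against 88427 at day 14. Those with 10 or more Mrgprd UMIs held 1 to 3 UMIs of both genes together at day 7 and 1 to 4 at day 14. Other deep neurons held up to 955 and 735.

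Over all gated neurons the lists were counted against the same shares of all genes as the receptors. The non-peptidergic list had 0 of 13 genes past 2-fold on either day, with medians of -0.14 and -0.35 against 0.02 and 0.07 for all genes. Gfra2, a receptor for neurturin, was at 644, 467 and 372 CPM, and Lpar3 at 147, 111 and 85.7 CPM, both lowest at day 14 as Mrgprd was. The itch list had 0 higher and 1 lower of 12 at day 7 (median -0.04), which was Sst (26.2 to 11.4 CPM), and 2 higher and 0 lower of 13 at day 14 (median 0.57). These were Hrh1 (0.823 to 6.70 CPM) and the neuropeptide gene Nts (62.2 to 292 CPM). The signalling list had 1 higher and 1 lower of 20 at day 7 (median -0.01), the inositol trisphosphate receptor Itpr3 (4.70 to 10.5 CPM) and the kinase Prkcb (32.7 to 14.6 CPM), and 2 higher at day 14 (median 0.05), Itpr1 (10.2 to 31.1 CPM) and the potassium channel Kcnq3 (4.82 to 15.2 CPM). The peptidergic list had 1 and 3 of 7 higher (medians 0.23 and 0.99), the large neuron list 2 of 7 higher on both days (0.40 and 0.62), and the C-low threshold mechanoreceptor list 4 of 6 lower on both days (-1.07 and -1.08). The injury list had 7 of 7 tested genes higher on both days (3.51 and 2.34).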

How the data were processed

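Dissociated L3 and L4 DRG cells were captured with the 10x Genomics 3′ kit (v3). The authors made the deposited matrices with Cell Ranger 3.0.2 on mm10, per the submitters' processing notes, and the values are raw UMI counts per gene and barcode. The study's methods do not describe how these libraries were analysed. The members and lists were chosen with earlier results of these data known. Counts were summed per library and cell class in Python 3.11.15 with numpy 2.4.6, pandas 2.3.3 and scipy 1.17.1. Other classes needed at least 3 of 6 markers and more than any other class. CPM used the summed UMIs of the class, shares have Clopper-Pearson intervals, levels Poisson intervals and ratios conditional binomial intervals, and UMI intervals cover counting error only. A gene at 0 was limited by 3 counts. Thinned shares are hypergeometric expectations.

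Named genes were the 6 members, the other genes of the family, the 5 genes most correlated with each member found in at least 10 gated neurons, and up to 4 of each list, by textbook role or ratio. Osmr, Ptgdr and Gm22064 and the genes of the split by Mrgprd were named after their values were seen. Depth per library and neuron is given in the report. Doublets were kept, and Scrublet (run in scanpy 1.11.5) marked 90 cells (0.931%), 2 of them gated neurons, whose removal was an alternative. Other filters, gates, clusters (leidenalg 0.10.2), thinning and UMI minimums were also tried, and the split by Mrgprd and the shallow-neuron ratios were added after seeing the data. On simulated counts for 31053 genes with 200 changed 4-fold, the comparison with day 7 and that with day 14 each recovered 200 and called 1 unchanged gene. The changed genes were at 10 CPM or more, and summed counts were drawn without variation between cells, mice or libraries. The simulation therefore checks the calculation only and gives no error rate for the real comparisons. Coordinates are from GENCODE vM21, where 30934 of 31053 gene IDs and all 21 family IDs were found.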

Additional observations from a re-analysis of the deposited data

How the results depend on the processing

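No paired analysis was possible because a single library stands for each condition. For Mrgprd, the log2 ratio of day 14 over naive was below 0 in all 14 alternatives (-3.21 to -0.023). It was -0.61 under a stricter filter (1000 genes or more, mitochondrial share up to 10%), -0.98 as the mean of each neuron's CPM, -3.21 in neurons under 20000 UMIs and -0.023 in neurons with at least 5 Mrgprd UMIs. At day 7 the ratio, 0.03, had the same sign in 11 of 14 and was -0.31, -0.50 and 0.17 under the stricter filter, in the shallow neurons and in neurons with at least 5 UMIs. The Mrgpra3 ratios were 1.82 and 1.07 without the cell filter, where 1 more naive barcode entered. The other 10 of 11 alternatives on each day lay within counting error. Leaving out the neuron with the most Mrgpra3 UMIs gave no ratio, because the only naive neuron that held it is then removed. The Mrgpra3 ratios were therefore not checked without the single neurons that carried most of the injury UMIs. The Mrgpre ratio at day 14 was -0.55 in shallow neurons. Shares moved with depth and with the UMI minimum by construction. The day 7 share of Mrgprd was 35.8% under the stricter filter and 13.6% and 8.25% with 2 and 5 UMIs required. The Mrgpre shares in the naive, day 7 and day 14 libraries were 77.1%, 84.6% and 82.7% in deep neurons, 12.3%, 11.9% and 11.8% thinned to 5000 UMIs, 37.9%, 36.9% and 39.0% thinned to 20000, 40.6%, 16.0% and 50.7% with 2 UMIs and 9.38%, 5.83% and 20.5% with 5, and at day 7 55.2% under the stricter filter and 37.0% with a gate of 8 markers. The ratios that changed sign under an alternative, those of Mrgprd and Mrgpre at day 7 and of Mrgpre and Mrgprx1 at day 14, have reported intervals that include 0. With few UMIs, differences in Mrgprb4, Mrgprb5 and Mrgprx1 below several-fold cannot be seen.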
